A study of Mus musculus with 3 samples.

Results

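The transcriptome of lung mesenchymal stromal cells (LMSCs) taken at the pre-metastatic stage was set beside that of LMSCs taken at the adenoma stage, to describe which genes stood higher and lower before any tumour was seen in the lung. PM-LMSC came from MMTV-PyMT mice of 11 weeks, with large mammary tumours and a lung free of tumour. A-LMSC came from MMTV-PyMT mice of 7 weeks, with few and small mammary tumours. Both stages carry the same transgene, the polyoma virus middle T antigen under the promoter of the mouse mammary tumour virus and thus expressed in the mammary epithelium, on the FVB/N background. Each stage had 1 library of total RNA, and a library of metastatic-stage cells (M-LMSC, 13 weeks) is given beside named genes only. All cells had been grown in culture, depleted of CD45-positive cells with beads and expanded to passage 3. By the study's description each library stands for a single animal, and pooling of mice is not mentioned. Of 34742 genes, the 7286 that reached 20 CPM (read counts scaled to library size) in PM-LMSC or in A-LMSC are described here, 7157 of them protein-coding.

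Mesenchymal stromal cells are spindle-shaped, matrix-producing cells that lie around vessels and airways of the lung. In culture they attach through integrins to fibronectin and collagen, pull on that matrix with actin and myosin, and secrete collagens, proteases, growth factors and chemokines. Cells on a stiff surface or under tension carry more YAP and SRF activity in the nucleus, which is how attachment and the actin skeleton reach gene expression. In tumour-bearing animals such cells are studied because the matrix and the soluble factors they release can precede the arrival of tumour cells.

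The libraries held 12594155 counts in PM-LMSC and 13479898 in A-LMSC, with a count in 16386 and 14871 genes in that order. With a single library a stage no difference had a replicate check, no test was run, and the 95% intervals given cover counting error only. The mesenchymal identity of the cultures was visible in both: 8 of 9 mesenchymal markers reached 20 CPM, with a summed level of 17634 CPM in PM-LMSC and 35204 CPM in A-LMSC. Of the surface genes by which the study defined LMSCs, Itgb1, Cd44, Pdgfra and Nes reached 20 CPM and Ly6a did not, and their sum with Ly6a was 3362 CPM in PM-LMSC, against 197 CPM in A-LMSC. The genes stated as absent summed to 39.8 CPM in PM-LMSC, almost all of it Cd34, against 2.54 CPM in A-LMSC, and Ptprc, the CD45 gene, had 3 and 0 counts. The 6 endothelial markers summed to 17.5 CPM in PM-LMSC and 3.35 CPM in A-LMSC, and none reached 20 CPM.

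Markers of other cell types differed in summed level between the libraries. Lung epithelial markers summed to 1.02 CPM in PM-LMSC, where 5 of 8 had 0 counts, against 116 CPM in A-LMSC, and only Sftpc reached 20 CPM. Leukocyte markers summed to 309.8 CPM in PM-LMSC and 87.4 CPM in A-LMSC. Most of this was Lyz2, the lysozyme gene of macrophages, with 3128 counts in PM-LMSC and 570 in A-LMSC, while Adgre1, which encodes the macrophage antigen F4/80, had 146 counts in PM-LMSC and 0 in A-LMSC. Mammary or general epithelial markers summed to 53.7 CPM in PM-LMSC and 7.89 CPM in A-LMSC. The mesothelial markers summed to 45.1 CPM and 25.8 CPM in the same order. In bulk RNA fewer cells of a type and less RNA per cell cannot be told apart. Whether other cells or the stromal cells gave these reads was not tested, and their part in the genes below was not tested.

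Of the 7286 genes, 2323 (31.9%) stood higher in PM-LMSC by 2-fold or more and 2501 (34.3%) lower by as much. Higher genes were 48.2% of these calls and lower genes 51.8%, but 61.2% and 38.8% with column totals in place of TMM scaling, which moved the median ratio by 0.37, and 61.9% and 38.1% with the deposited FPKM, which moved it by 0.31. These are log2 ratios of CPM plus 1, so that the ratio of a low gene is understated. The median ratio was -0.33, and the middle 50% of genes ran between -1.27 and 1.63. The distribution was lopsided, with a crowded peak of genes somewhat lower in PM-LMSC and a long shoulder of genes 2-fold to 16-fold higher. In both libraries 4525 genes reached 20 CPM, while 1819 did so only in PM-LMSC and 942 only in A-LMSC, and genes of these last groups had to differ to be included. At the edge of the inclusion rule, the 237 genes whose higher library held 20 to 22 CPM had a median ratio of 0.82, and the 272 genes just outside it, at 18 to 20 CPM, had 1.19. Counting error was small, with a 95% interval of the ratio that reached 0.18 to either side for the median gene and 0.52 for the gene at the 95th percentile of interval width.

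The ratio followed the base composition of the transcript. Among the 716 protein-coding genes of the lowest decile of GC content, below 44.1%, the median ratio was 1.88, and 74.2% were higher by 2-fold or more. Among the 716 genes of the highest decile, above 58.6%, the median was -1.50, and 82.7% were at least 2-fold lower. The medians in between passed through 2.13, 1.73, 0.95, -0.08, -0.53, -0.94, -1.20 and -1.39. Across the 7157 protein-coding genes Spearman's rank correlation was -0.70 with GC content and 0.37 with transcript length, which are descriptions across genes of a single pair of libraries. Long transcripts stood higher in PM-LMSC: the median ratio was -0.95 in the decile of shortest transcripts, up to 1426 bases, and 1.95 in the decile of the longest, from 6488 bases. What moved the ratios with GC content and length was not tested, and with 1 library a stage it cannot be told apart from the stage.

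Each gene was therefore also set beside genes of like composition. Its ratio minus the median ratio of the 300 protein-coding genes nearest in GC content is called the like-GC difference, and that beside the 300 nearest in both GC content and length the GC-and-length difference. By the like-GC difference 1590 of 7277 genes (21.8%) stood at least 2-fold above their neighbours and 1200 (16.5%) at least 2-fold below. With length added these were 1346 (18.5%) and 1145 (15.7%). Of the 2323 genes that were 2-fold higher, 1234 (53.1%) were also 2-fold above genes of like GC content, and of the 2501 that were 2-fold lower, 519 (20.8%) were also 2-fold below. With all 3 measures 881 genes were higher and 430 lower. The like-GC difference still ran with length (rank correlation 0.32), which the GC-and-length difference did not (rank correlation -0.01), so both are given for the genes below.

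**Figure D1:**
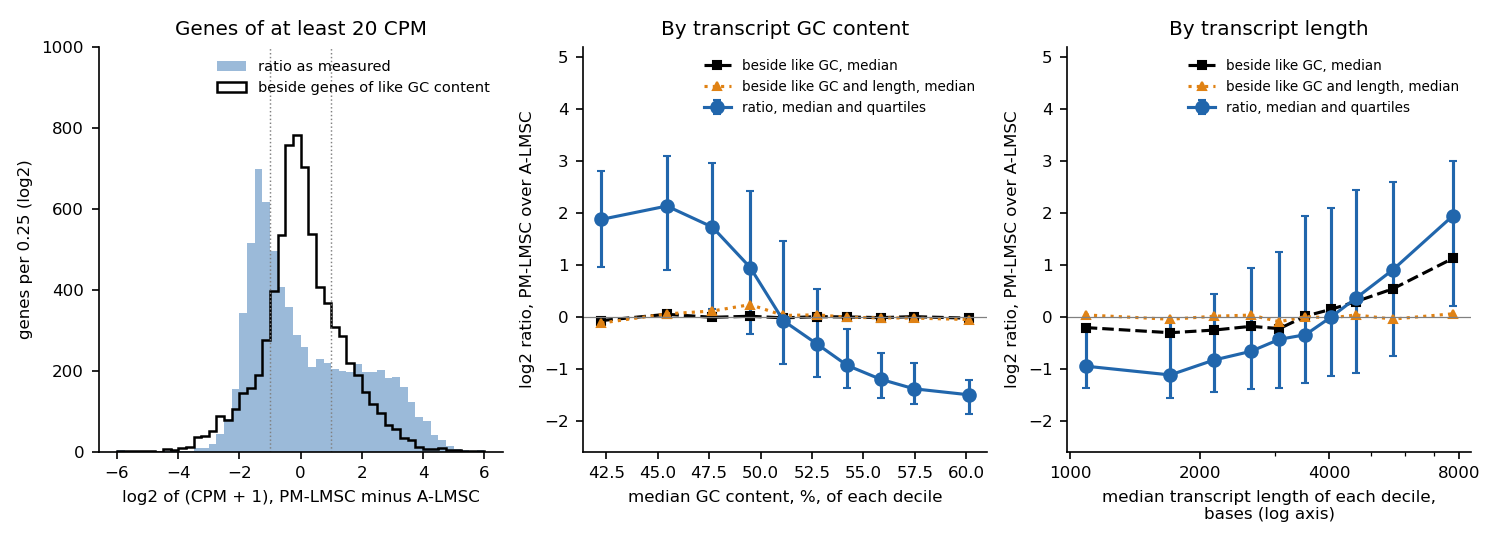
Left, number of genes by log2 ratio of PM-LMSC to A-LMSC (filled) and by like-GC difference (outline), with dotted lines at 2-fold. Middle and right, the median ratio with its quartiles (circles and bars), the median like-GC difference (squares) and the median GC-and-length difference (triangles) in deciles of transcript GC content and of transcript length: the ratio ran from 1.88 in the lowest GC decile to -1.50 in the highest, and the GC-and-length medians stayed near 0 along both axes.

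The genes that stood furthest above genes of like GC content in PM-LMSC included the myosin genes Myh11, Myh10 and Myo10. Of the 15 taken by this rule 14 are described, and Sema7a came first. Sema7a, a membrane-anchored semaphorin that binds integrins, had 158 CPM in PM-LMSC and 5.44 CPM in A-LMSC, a 29.0-fold difference (interval 22.5 to 38.2), with a like-GC difference of 6.05, and it stood as far above genes of like GC content and length. It did not stay high in the later stage, with 2.90 CPM in M-LMSC. Myh11, the smooth muscle myosin heavy chain, had 279.9 CPM in PM-LMSC and 9.15 CPM in A-LMSC (30.6-fold, 25.1 to 37.6), and 242 CPM in M-LMSC. Myh10, a non-muscle myosin heavy chain, had 395 CPM in PM-LMSC and 12.9 CPM in A-LMSC (30.7-fold, 26.0 to 36.5). For these myosins, whose transcripts are long, the like-GC differences of 5.43 for Myh11 and 5.12 for Myh10 became 4.12 and 3.02 with length added.

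Nes, the intermediate filament protein nestin and a marker used to define these cells, had 966 CPM in PM-LMSC, against 60.0 CPM in A-LMSC (16.1-fold, 14.9 to 17.4), and 362 CPM in M-LMSC. Its GC-and-length difference was 4.63. Trio, an exchange factor for small GTPases of the actin skeleton, had 243 CPM in PM-LMSC and 8.79 CPM in A-LMSC. Arhgap31, which turns such GTPases off, had 223 CPM in PM-LMSC and 11.1 CPM in A-LMSC. Both thus stood about 20-fold or more apart, although their products act in opposite directions. Sptan1, the spectrin chain of the membrane skeleton, had 1207 CPM in PM-LMSC and 57.4 CPM in A-LMSC. Akap12, a scaffold for protein kinase A and C, had 499.6 CPM in PM-LMSC and 21.9 CPM in A-LMSC.

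Myo10, the myosin of filopodia tips, had 379 CPM in PM-LMSC and 25.7 CPM in A-LMSC. Cgnl1, a protein of cell junctions, was the member of this group with a higher level in M-LMSC than in PM-LMSC, with 183 CPM in PM-LMSC, 292 CPM in M-LMSC and 10.2 CPM in A-LMSC. The remaining genes were of varied function. Chsy1, a synthase of chondroitin chains, had 104 CPM in PM-LMSC and 4.71 CPM in A-LMSC, and Pde4dip, a protein of the Golgi and centrosome, 139 CPM and 10.1 CPM in the same order. Phlpp1, a phosphatase of the kinase Akt, had 49.4 CPM in PM-LMSC and 3.44 CPM in A-LMSC. Ice1, a part of the little elongation complex that serves small nuclear RNA genes, rested on few counts, with 811 in PM-LMSC and 10 in A-LMSC (69.9-fold, 37.8 to 146). All 14 stayed at least 2-fold above their neighbours with length added, the smallest GC-and-length difference being 2.69, for Sptan1.

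**Figure D2:**
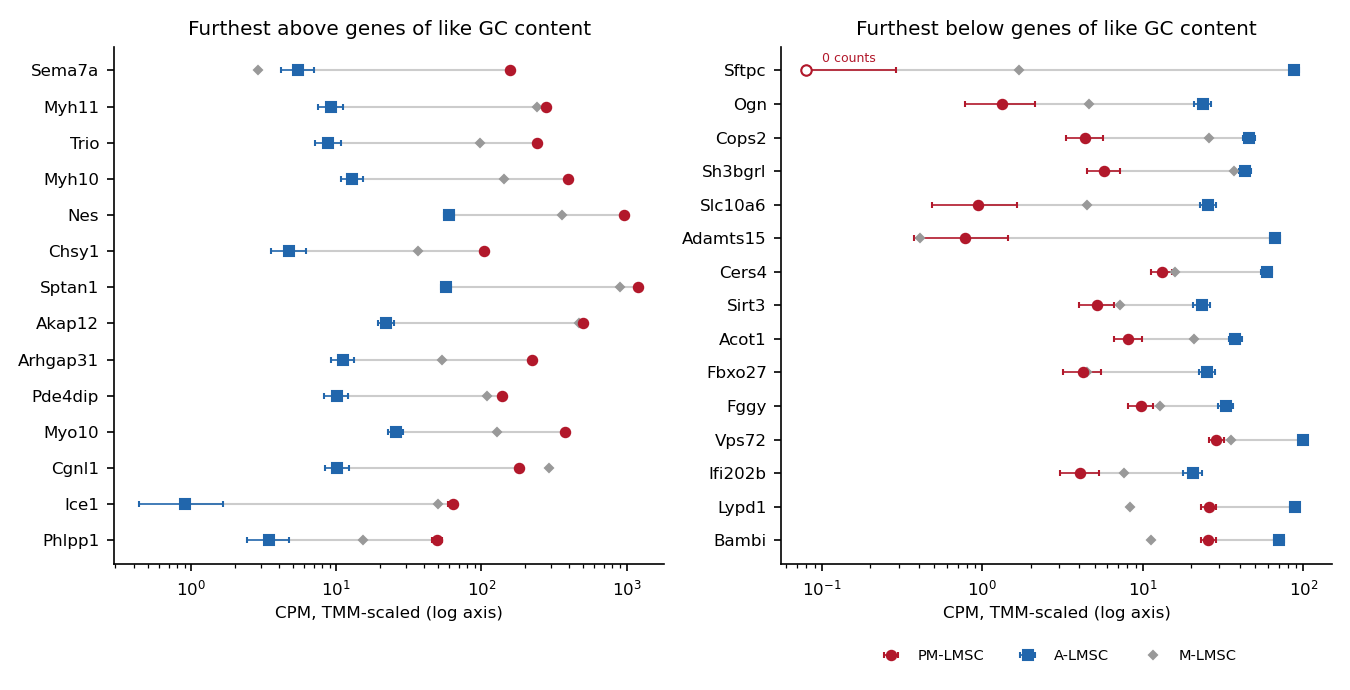
TMM-scaled CPM on a log axis for 14 of the 15 genes furthest above (left) and the 15 furthest below (right) genes of like GC content, with PM-LMSC as circles, A-LMSC as squares and M-LMSC as diamonds; bars are exact 95% Poisson intervals of PM-LMSC and A-LMSC, and the open circle is Sftpc with 0 counts. The left-hand genes lay at or below 60.0 CPM in A-LMSC and between 49.4 and 1207 CPM in PM-LMSC, and the right-hand genes at or below 28.7 CPM in PM-LMSC.

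The 15 genes furthest below genes of like GC content were a mixed group, at lower levels. Sftpc, the surfactant protein C gene of alveolar type 2 cells, had 0 counts in PM-LMSC and 969 in A-LMSC, at least 375-fold lower with the PM-LMSC count set to the floor of 3 counts. It moved with the rest of the lung epithelial list, given above. Adamts15, a protease that cuts proteoglycans, had 0.781 CPM in PM-LMSC and 67.0 CPM in A-LMSC, 85.7-fold lower (46.4 to 180 on 10 counts in PM-LMSC), and 0.406 CPM in M-LMSC. Ogn, the small proteoglycan osteoglycin, had 1.33 CPM in PM-LMSC and 23.6 CPM in A-LMSC (17.7-fold lower, 10.9 to 30.9). Its transcript is poor in GC, so its neighbours stood higher in PM-LMSC, and the like-GC difference of -5.14 was larger than the ratio of -3.40.

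Slc10a6, a carrier of sulfated steroids, had 0.937 CPM in PM-LMSC and 25.5 CPM in A-LMSC (27.2-fold lower, 15.3 to 53.2). Cops2, a subunit of the COP9 signalosome that acts on cullin ligases, had 4.37 CPM in PM-LMSC and 45.9 CPM in A-LMSC. Sh3bgrl had 5.70 CPM in PM-LMSC and 43.4 CPM in A-LMSC. Cers4, a ceramide synthase, had 13.1 CPM in PM-LMSC and 59.1 CPM in A-LMSC. These genes were thus low rather than absent in PM-LMSC. The mitochondrial deacetylase gene Sirt3 had 5.16 CPM in PM-LMSC and 23.3 CPM in A-LMSC, and Acot1, a thioesterase of fatty acyl-CoA, 8.12 CPM and 37.7 CPM in the same order. Ifi202b, an interferon-inducible gene whose reads may be shared with close paralogs, had 4.06 CPM in PM-LMSC and 20.4 CPM in A-LMSC. Bambi, a decoy receptor that dampens TGF-beta and BMP signals, had 25.6 CPM in PM-LMSC and 70.5 CPM in A-LMSC (2.75-fold lower, 2.42 to 3.14).

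Fbxo27, Fggy, Vps72 and Lypd1 completed the group. Of them Vps72, a subunit of chromatin remodelling complexes, was the most abundant, with 28.7 CPM in PM-LMSC and 99.3 CPM in A-LMSC, while Lypd1 was lower still in M-LMSC, with 25.7 CPM in PM-LMSC, 8.35 CPM in M-LMSC and 88.4 CPM in A-LMSC. For Fbxo27 and Fggy the ratios were -2.33 and -1.66 and the like-GC differences -3.98 and -3.86. All 15 genes stayed at least 2-fold below their neighbours with length added. The GC-and-length difference smallest in size was -2.77, for Fbxo27.

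The most abundant genes differed in order between the libraries. CPM are not divided by length, so the order is that of reads and not of transcripts. Among the most abundant genes of PM-LMSC, Thbs1, thrombospondin-1, had 11124 CPM in PM-LMSC and 793 CPM in A-LMSC (14.03-fold, 13.7 to 14.3), and a GC-and-length difference of 1.96. Fn1, fibronectin, had 7267 CPM in PM-LMSC and 3056 CPM in A-LMSC, but beside genes of like GC content and length its difference was 0.17. Eef1a1, a translation elongation factor, had 7115 CPM in PM-LMSC and 1953 CPM in A-LMSC, with a like-GC difference of 0.14 and a GC-and-length difference of 1.03. Col5a2, a chain of type V collagen, had 5151 CPM in PM-LMSC and 2533 CPM in A-LMSC, and lay below genes of like GC content and length, at -1.30.

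In A-LMSC the most abundant genes were Eef2, Col1a1, Col1a2 and Pkm. Eef2, the elongation factor of translocation, had 5250 CPM in PM-LMSC and 16578 CPM in A-LMSC, a ratio of -1.66. Col1a1 and Col1a2, the chains of type I collagen, had 7267 and 5721 CPM in PM-LMSC, against 16401 and 13379 CPM in A-LMSC. Pkm, the pyruvate kinase of glycolysis, had 4830 CPM in PM-LMSC and 11564 CPM in A-LMSC. For these 4 genes the like-GC differences were small, at -0.29, 0.26, -0.12 and 0.16, that is, they were lower to about the extent that other GC-rich transcripts were. Saa3 was different. This acute-phase apolipoprotein gene had 2416 CPM in PM-LMSC and 8464 CPM in A-LMSC (3.50-fold lower, 3.46 to 3.55), with a like-GC difference of -3.39 and a GC-and-length difference of -2.45, and 797 CPM in M-LMSC.

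Also below their like were Rpsa, a ribosomal protein gene (2153 CPM in PM-LMSC, 5792 CPM in A-LMSC, like-GC difference -1.72), and Ldha, the lactate dehydrogenase of glycolysis (2993 CPM in PM-LMSC, 7998 CPM in A-LMSC, -1.14, and -0.76 with length added). Rpsa has processed pseudogenes to which its reads may be assigned. Lrp1, Actb, Serpinh1, Fbln2 and Ctsd were higher in A-LMSC as well, at 5375 to 6939 CPM there, with like-GC differences between -0.57 and 0.50. Acta2, the smooth muscle actin of myofibroblasts, was about equal, with 5781 CPM in PM-LMSC and 4429 CPM in A-LMSC. Sparc, a collagen-binding glycoprotein (5142 CPM in PM-LMSC, 5365 CPM in A-LMSC), and Flna, the actin cross-linker filamin A (5047 CPM in PM-LMSC, 4720 CPM in A-LMSC), were about equal too.

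Among the 192 protein-coding genes of at least 500 CPM in both libraries outside the classes passed over, 10 were named for lying closest to 0 by ratio and like-GC difference. Ccnd1, cyclin D1, had 595 CPM in PM-LMSC and 577 CPM in A-LMSC, a ratio of 0.04 and a like-GC difference of 0.01. Mlec, Psmd2, Capzb, Uba1, Serping1, Cfl1, Lif, Cyr61 and Mprip had ratios between -0.34 and -0.03. Lif, a cytokine of the IL-6 family, had 547 CPM in PM-LMSC and 692 CPM in A-LMSC. The choice of neighbours mattered here for Mprip, a myosin phosphatase partner of long transcript, whose like-GC difference of 0.15 became -2.34 with length added, and for Mlec, with 0.02 and -1.17.

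Gene lists were summarised by the median over members of at least 20 CPM, beside the medians over all genes of -0.33 for the ratio, -0.02 for the like-GC difference and 0.00 for the GC-and-length difference. The list medians of the ratio spread widely, between -1.77 for retinoid and xenobiotic genes and 3.28 for nuclear pore and import genes. With the GC-and-length difference they lay between -0.78 for interferon-stimulated genes and 1.10 for YAP and SRF target genes. Counts of members are those at least 2-fold higher and lower by ratio, then those at least 2-fold above and below their neighbours, each with its median. Of all genes 31.9% were higher and 34.3% lower by ratio. By the like-GC difference 21.8% were above and 16.5% below, and with length added 18.5% and 15.7%. Where a gene is said to lie at a value, that value is its GC-and-length difference. Lists at the upper end of that measure were YAP and SRF target genes, nuclear pore and import, ribosome assembly, the TGF-beta and BMP pathway, contractile genes and matrix proteases, and those at the lower end interferon-stimulated genes, retinoid genes and chemokines.

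**Figure D3:**
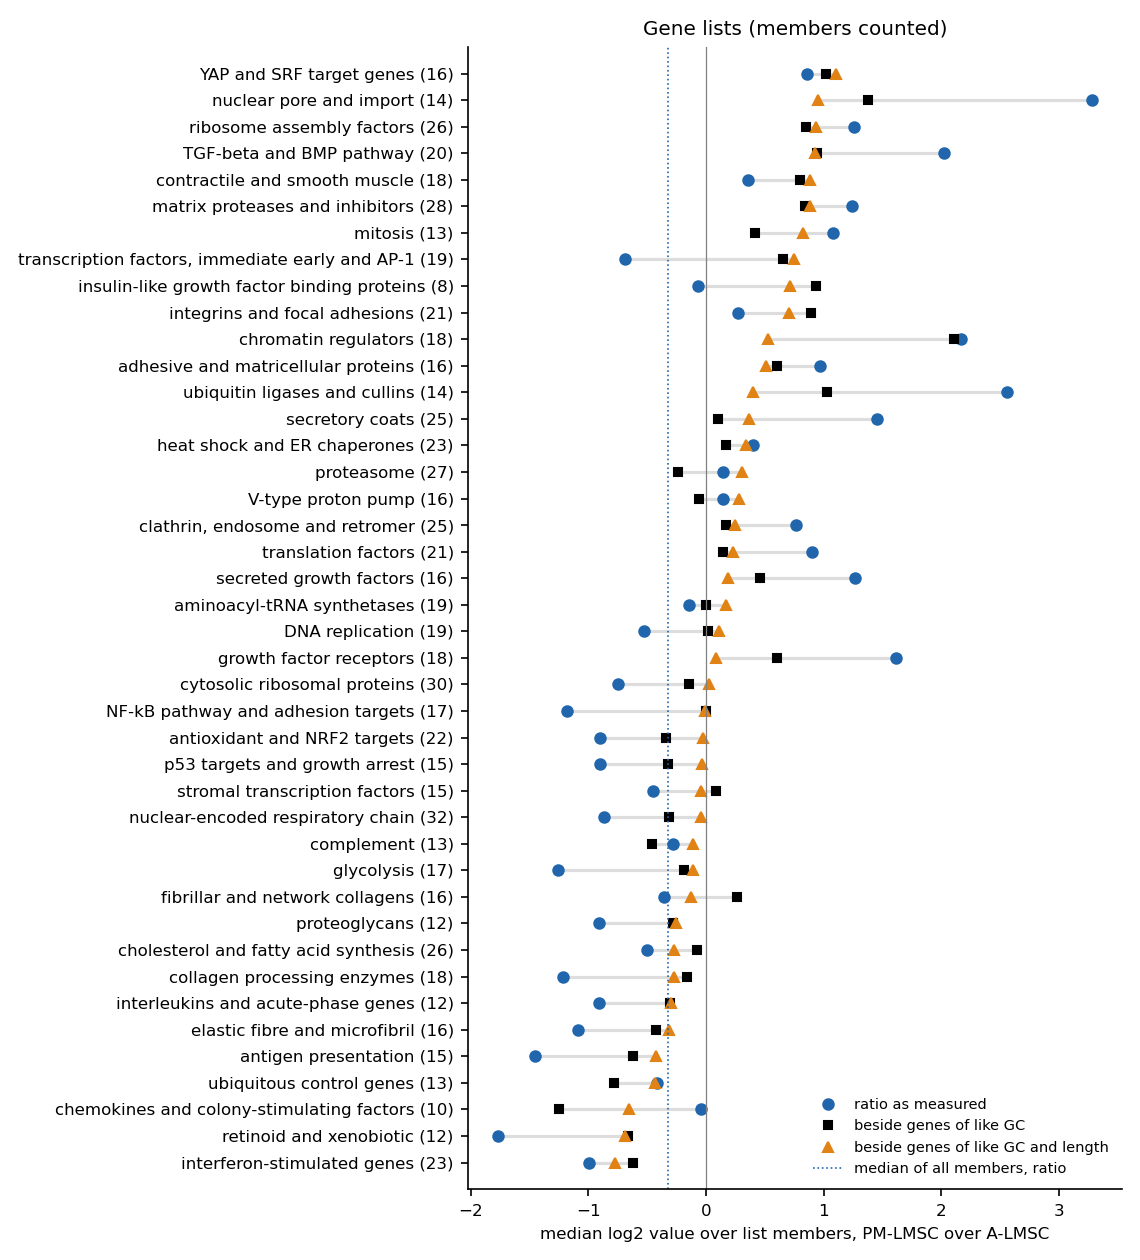
Median over the members of each of 42 gene lists of the log2 ratio of PM-LMSC to A-LMSC (circles), of the like-GC difference (squares) and of the GC-and-length difference (triangles), with the number of members in parentheses, sorted by the last. The dotted line marks the median ratio of all members, -0.33; GC-and-length medians ran from -0.78 (interferon-stimulated genes) to 1.10 (YAP and SRF target genes).

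Some receptors and linkers of cell attachment stood far above genes of like composition in PM-LMSC, and most did not. Of 26 integrin and focal adhesion genes 21 reached 20 CPM, with 6 at least 2-fold higher and 1 lower (median 0.27), 8 above and 1 below genes of like GC content (median 0.89), and 7 above and 1 below with length added (0.71). Of all genes 21.8% were above and 16.5% below by the like-GC difference. Itgb1, the beta-1 chain shared by the receptors for collagen, laminin and fibronectin, had 1846 CPM in PM-LMSC and 42.6 CPM in A-LMSC (43.3-fold, 39.5 to 47.6), a GC-and-length difference of 2.99, and 2074 CPM in M-LMSC. Itga6, a laminin receptor chain, had 364 counts in PM-LMSC and 1 in A-LMSC (314-fold, 56.0 to 12425), and Itga5, the fibronectin receptor chain, 3368 CPM in PM-LMSC and 1842 CPM in A-LMSC, with a GC-and-length difference of 2.12. Itgb1 and its partner chains were thus not alike in size of difference. Vcl, vinculin, which couples integrin sites to actin, had 1444 CPM in PM-LMSC and 67.1 CPM in A-LMSC (21.5-fold, 19.997 to 23.2). Fermt2, kindlin-2, which activates integrins, had 166 CPM in PM-LMSC and 8.43 CPM in A-LMSC (19.7-fold, 16.0 to 24.5).

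Not every attachment gene was higher. Itgb5, a chain of vitronectin receptors, had 298 CPM in PM-LMSC and 1120 CPM in A-LMSC, a ratio of -1.91, and a like-GC difference of -0.54. Parva, an adaptor of integrin-linked kinase, was nearly equal at 361 CPM in PM-LMSC and 300 CPM in A-LMSC, but lay below genes of like composition, at -1.62 and, with length added, -2.25. Tln1, Pxn, Zyx and Ilk, core proteins of the same sites, had ratios of -0.50, -0.77, -0.42 and -0.91, and GC-and-length differences between -0.31 and 0.93.

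All 18 contractile and smooth muscle genes reached 20 CPM, with 7 higher and 1 lower (median 0.36), 7 above and 1 below genes of like GC content (0.80), and 6 above and 0 below with length added (0.88). Tpm4, a tropomyosin that lines actin filaments, had 1713 CPM in PM-LMSC and 92.5 CPM in A-LMSC, a GC-and-length difference of 2.72. Myh9, the other main non-muscle myosin chain, had 4641 CPM in PM-LMSC and 1914 CPM in A-LMSC, with a GC-and-length difference of 2.04. Cnn3, a calponin, had 409 CPM in PM-LMSC and 35.8 CPM in A-LMSC. Common myofibroblast markers were within 2-fold: Tagln, the actin-binding protein SM22, had 4141 CPM in PM-LMSC and 4109 CPM in A-LMSC, and Cnn1 581 CPM and 939 CPM in the same order. Cnn2 was lower, with 1222 CPM in PM-LMSC and 2771 CPM in A-LMSC, and a like-GC difference of -0.43. Vim, vimentin, was higher by its ratio of 0.89 and lower by its like-GC difference of -1.17.

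The list of YAP and SRF target genes and partners had 16 of 17 members, with 8 higher and 1 lower (median 0.86), 9 above and 1 below genes of like GC content (1.02), and 9 and 1 with length added (1.10). Ankrd1, a YAP target in stretched cells, had 650 CPM in PM-LMSC and 25.2 CPM in A-LMSC (25.8-fold, 22.9 to 29.2), a GC-and-length difference of 3.78, and 707 CPM in M-LMSC. Amotl2 and Lats2, which feed back on YAP, had 604 and 159 CPM in PM-LMSC, against 295 and 38.6 CPM in A-LMSC, and GC-and-length differences of 2.19 and 1.81. Ctgf and Cyr61, the classical secreted YAP targets, were close to equal. Ctgf had 3593 CPM in PM-LMSC and 2234 CPM in A-LMSC, and Cyr61 2247 CPM and 2575 CPM in the same order, with GC-and-length differences of 0.27 and 0.77. Yap1 itself had 308 CPM in PM-LMSC and 68.3 CPM in A-LMSC, a ratio of 2.16 that its neighbours shared (like-GC difference 0.06), and its paralog Wwtr1 lay below its neighbours at -2.24, with 79.4 CPM in PM-LMSC and 64.4 CPM in A-LMSC. Egr1, an immediate early SRF target, was lower, with 127 CPM in PM-LMSC and 505 CPM in A-LMSC.

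**Figure D4:**
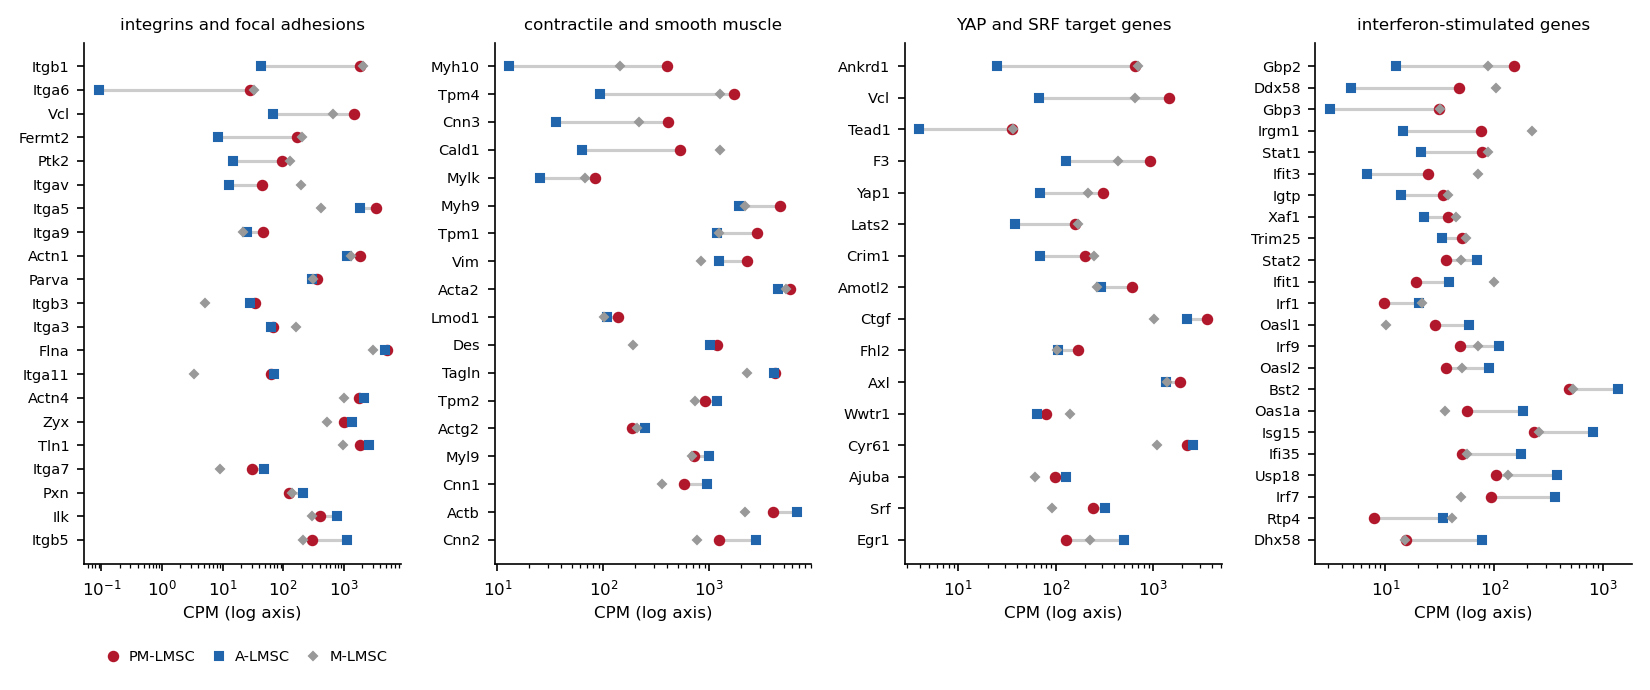
CPM on a log axis in PM-LMSC (circles), A-LMSC (squares) and M-LMSC (diamonds) for the members of 4 gene lists, sorted by the ratio of PM-LMSC to A-LMSC. Itgb1 (1846 and 42.6 CPM in PM-LMSC and A-LMSC), Myh10 (395 and 12.9 CPM) and Ankrd1 (650 and 25.2 CPM) lie at the top of their lists, and the interferon-stimulated genes split into members higher and members lower in PM-LMSC.

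Promoters of the adhesion, contractile and YAP and SRF lists were read for the CArG box, the site bound by SRF. Promoters of 300 bases were taken from RefSeq (GRCm38.p6). The CArG box lay in the promoters of 6 of 42 matched members of the 3 lists above (14.3%), in 84 of 5800 matched members (1.45%) and in 425 of 27025 promoters (1.57%). These lists were written around genes of which some are known SRF targets. The 6 did not go the same way: by ratio Vcl (4.41) and Fermt2 (4.14) were far higher in PM-LMSC, Fhl2 (0.65), Srf (-0.40) and Myl9 (-0.45) differed little, and Cnn2 (-1.18) was lower. By like-GC difference Vcl, Fermt2, Fhl2 and Srf stood above their neighbours at 2.76, 2.07, 1.07 and 1.26, while Myl9 and Cnn2 were within 2-fold of theirs at 0.86 and -0.43. The upstream 250 bases of 4 of them are shown to put the same box beside differences of unlike size, with the CArG box in capitals. Vcl lies at chr14:20929148-20929397, plus strand, box beginning 227 bases before the start. Fermt2 lies at chr14:45530066-45530315, minus strand, box beginning 204 bases before the start. Srf lies at chr17:46556163-46556412, minus strand, with 2 boxes, the nearer to the 5′ end beginning 82 bases before the start. Cnn2 lies at chr10:79988350-79988599, plus strand, box beginning 56 bases before the start.
Vcl: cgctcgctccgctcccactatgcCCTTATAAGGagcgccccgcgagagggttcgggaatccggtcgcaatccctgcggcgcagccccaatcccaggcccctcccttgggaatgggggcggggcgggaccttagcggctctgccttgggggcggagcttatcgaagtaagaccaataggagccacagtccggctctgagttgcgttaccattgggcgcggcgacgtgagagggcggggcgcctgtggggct
Fermt2: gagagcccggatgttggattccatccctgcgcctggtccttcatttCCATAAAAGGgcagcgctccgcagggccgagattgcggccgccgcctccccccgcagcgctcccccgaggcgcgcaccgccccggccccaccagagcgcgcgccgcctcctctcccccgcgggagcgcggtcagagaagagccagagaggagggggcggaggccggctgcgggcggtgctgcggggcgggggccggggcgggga
Srf: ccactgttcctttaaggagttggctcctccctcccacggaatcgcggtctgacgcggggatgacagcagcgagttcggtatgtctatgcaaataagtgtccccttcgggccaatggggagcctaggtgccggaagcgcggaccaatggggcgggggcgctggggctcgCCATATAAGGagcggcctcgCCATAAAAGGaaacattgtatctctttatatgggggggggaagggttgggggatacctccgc
Cnn2: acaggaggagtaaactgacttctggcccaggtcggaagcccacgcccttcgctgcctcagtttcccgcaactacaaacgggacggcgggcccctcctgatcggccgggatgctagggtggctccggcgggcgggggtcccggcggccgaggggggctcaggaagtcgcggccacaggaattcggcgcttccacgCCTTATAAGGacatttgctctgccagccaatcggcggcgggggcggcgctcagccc
The box of Vcl and that of Cnn2 are the same run of letters, in genes whose ratios were 4.41 and -1.18.

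Of the members at least 2-fold different both by ratio and from genes of like GC content, 980 higher and 395 lower genes had a matched promoter. The GC box GGGCGG was held by 73.4% of the higher and 65.3% of the lower genes, against 70.2% of the 5800 members and 35.9% of all promoters. For the AP-1 site TGANTCA the shares were 3.37%, 6.08%, 4.59% and 7.93% in the same order, for the TEAD site GGAATG 11.9%, 13.9%, 11.9% and 14.6%, and for the CArG box 1.84%, 0.759%, 1.45% and 1.57%. The CCAAT box was held by 37.6% of the higher and 43.5% of the lower genes, against 38.3% and 37.9% in the same order. The shares of higher and lower genes were closer than this for the TATA box TATAAA, for the ETS site CCGGAAG, for the YY1 site AAGATGGCG, for the E-box CACGTG, for the CRE TGACGTCA and for the sites of NF-kB and C/EBP. Within the adhesion, contractile and YAP or SRF lists 19 of 42 promoters (45.2%) held GGAATG, but these lists were written to include known YAP targets. Both strands were searched, a CArG box can contain TATAAA, and a match is not evidence of binding.

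Matrix genes went in both directions, as did all genes, of which 31.9% were higher and 34.3% lower by ratio. Of 20 collagens 16 reached 20 CPM, with 4 higher and 7 lower (median -0.35), 5 above and 1 below genes of like GC content (0.26), and 4 and 3 with length added (-0.13). Col4a1, of basement membranes, had 2690 CPM in PM-LMSC and 1984 CPM in A-LMSC, a GC-and-length difference of 1.36. Col6a3, of microfibrillar type VI collagen, had 239 CPM in PM-LMSC and 39.8 CPM in A-LMSC, and 1.65, while its partner chains Col6a1 and Col6a2 were lower, with ratios of -1.50 and -1.61. Col3a1 had 1536 CPM in PM-LMSC and 3262 CPM in A-LMSC, and a GC-and-length difference of -1.55. The chains of type VI collagen thus differed in direction by ratio. Those of type I had ratios of -1.17 for Col1a1 and -1.23 for Col1a2. Their neighbours in GC content shared these ratios (like-GC differences 0.26 and -0.12).

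The collagen processing enzymes were mostly lower, with 18 of 20 members, 4 higher and 10 lower (median -1.22), but 3 and 3 beside genes of like GC content (-0.16) and 1 and 5 with length added (-0.28). Plod2, a lysyl hydroxylase that hardens cross-links, had 111 CPM in PM-LMSC and 11.5 CPM in A-LMSC, whereas its paralog Plod1 had 173 CPM and 698 CPM in the same order. Plod1 stood at -1.58 beside genes of like GC content and length, and Plod2 at 0.91. Serpinh1, the collagen chaperone HSP47, had 1669 CPM in PM-LMSC and 5784 CPM in A-LMSC, and -0.44.

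Elastic fibre genes had 16 of 17 members, with 3 higher and 8 lower (median -1.09), 2 above and 5 below genes of like GC content (-0.43), and 1 and 4 with length added (-0.32). Eln, elastin, had 1.48 CPM in PM-LMSC and 48.4 CPM in A-LMSC (32.6-fold lower, 20.7 to 54.6), a GC-and-length difference of -2.95. Ltbp1, which holds latent TGF-beta in the matrix, was the member above its neighbours, with 341 CPM in PM-LMSC and 37.0 CPM in A-LMSC, and a GC-and-length difference of 2.32. Fbn1, fibrillin-1, had 1234 CPM in PM-LMSC and 166 CPM in A-LMSC, but its like-GC difference of 3.28 became 0.82 with length added. Fbln1, fibulin-1, had 183 CPM in PM-LMSC and 857 CPM in A-LMSC.

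Proteoglycans had 12 of 17 members, 2 higher and 5 lower (median -0.91), 1 above and 3 below genes of like GC content (-0.28), and 1 and 5 with length added (-0.26). Cspg4, the NG2 proteoglycan of pericytes, was the member above, with 199 CPM in PM-LMSC and 75.8 CPM in A-LMSC (GC-and-length difference 2.29), and 6.15 CPM in M-LMSC. Dcn, decorin, had 25.1 CPM in PM-LMSC and 45.5 CPM in A-LMSC, at -2.91. Adhesive and matricellular proteins had 16 of 21 members, 8 higher and 3 lower (0.97), 7 and 1 beside genes of like GC content (0.60), and 3 and 2 with length added (0.51). Laminin and nidogen chains of the basement membrane went in both directions by ratio. Nid1 had 1139 CPM in PM-LMSC and 137 CPM in A-LMSC, and Lamb1 777 CPM and 218 CPM in the same order, with GC-and-length differences of 1.16 and 1.24. Lamb2 was lower, with 172 CPM in PM-LMSC and 399 CPM in A-LMSC, at 0.04, and Nid2 had 108 CPM and 118 CPM in the same order, at 0.59.

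Matrix proteases and their inhibitors were higher in PM-LMSC more often than lower. Of 30 genes 28 reached 20 CPM, with 15 higher and 3 lower (median 1.24), 11 above and 5 below genes of like GC content (0.84), and 12 and 5 with length added (0.88). Of the 28 members 7 reached 20 CPM in only 1 library, and such genes had to differ to be included. Of all genes 31.9% were higher and 34.3% lower by ratio. Among the inhibitors Timp3, which stays bound to the matrix, had 3912 CPM in PM-LMSC and 105 CPM in A-LMSC (37.3-fold, 35.2 to 39.6), and Timp1 1730 CPM and 757 CPM in the same order. Their GC-and-length differences were 2.88 and 2.07. Among the proteases Plau, urokinase, had 322 CPM in PM-LMSC and 27.7 CPM in A-LMSC (11.6-fold, 10.3 to 13.1), and its receptor gene Plaur 418 CPM and 219 CPM in the same order, at 2.66 and 1.93. Urokinase and its receptor thus both stood above their neighbours. Adam17, the sheddase of TNF and of EGF receptor ligands, had 57.5 CPM in PM-LMSC and 1.36 CPM in A-LMSC, at 2.09. Mmp3, stromelysin-1, had 657 CPM in PM-LMSC and 160 CPM in A-LMSC, a ratio of 2.03 that its neighbours in GC content shared (like-GC difference -0.04). Mmp11 was lower, with 17.8 CPM in PM-LMSC and 103 CPM in A-LMSC, at -1.12, as was Adamts15.

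Growth factor genes were led by Hbegf, a ligand of the EGF receptor. Of 22 secreted growth factors 16 reached 20 CPM, with 9 higher and 1 lower (median 1.26), 6 and 3 beside genes of like GC content (0.46), and 7 and 2 with length added (0.18). Of the 16 members 8 reached 20 CPM in only 1 library. Hbegf had 252 CPM in PM-LMSC and 16.6 CPM in A-LMSC (15.2-fold, 13.1 to 17.7), a GC-and-length difference of 4.28, and 41.8 CPM in M-LMSC. Ereg, another such ligand, had 78.6 CPM in PM-LMSC and 6.71 CPM in A-LMSC, at 1.39. Pdgfc, a ligand of the receptor encoded by Pdgfra, had 21.2 CPM in PM-LMSC and 0.997 CPM in A-LMSC. Csf1, the macrophage growth factor, had 4202 CPM in PM-LMSC and 1806 CPM in A-LMSC, at 2.00, and Vegfa 436 CPM and 122 CPM, at 1.95. Igf1 lay below its neighbours, with 29.1 CPM in PM-LMSC and 40.8 CPM in A-LMSC, at -2.77.

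Receptors had 18 of 26 members, 10 higher and 2 lower (median 1.62), 6 and 2 beside genes of like GC content (0.60), and 5 and 2 with length added (0.08). Of the 18 members 6 reached 20 CPM in only 1 library, Il1rl1 and Il1r1 among them, and such genes had to differ to be included. Of all genes 31.9% were higher and 34.3% lower by ratio. Il1rl1, the receptor of IL-33, had 313 CPM in PM-LMSC and 7.52 CPM in A-LMSC (41.7-fold, 33.5 to 52.4), at 2.67, and 57.4 CPM in M-LMSC. Il1r1, the IL-1 receptor, had 119 CPM in PM-LMSC and 5.44 CPM in A-LMSC, at 1.65. Pdgfra had 230 CPM in PM-LMSC and 30.8 CPM in A-LMSC, a ratio of 2.86, but 0.25 beside genes of like GC content and length. Il4ra, the shared chain of the IL-4 and IL-13 receptors, was lower, with 233 CPM in PM-LMSC and 1093 CPM in A-LMSC, at -1.34. All 8 genes of insulin-like growth factor binding proteins and receptors were members, with 2 higher and 1 lower (-0.07), 4 and 1 beside genes of like GC content (0.94) and 4 and 2 with length added (0.72).

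The TGF-beta and BMP pathway had 20 of 28 members, with 14 higher and 2 lower (median 2.03), 9 above and 1 below genes of like GC content (0.95), and 10 and 2 with length added (0.93). Of the ligands Tgfb3 had 359.7 CPM in PM-LMSC and 91.5 CPM in A-LMSC (3.93-fold, 3.67 to 4.21), at 2.66, and Inhba, an activin chain, 88.7 CPM and 6.25 CPM in the same order, at 1.22. Of the antagonists Fst, follistatin, which binds activins, was higher as well, with 161 CPM in PM-LMSC and 11.9 CPM in A-LMSC, at 1.76. Smad7, the feedback inhibitor inside the cell, had 84.1 CPM in PM-LMSC and 34.6 CPM in A-LMSC, at 2.47. The BMP target Id3 was lower, with 263 CPM in PM-LMSC and 1001 CPM in A-LMSC, at -0.68. Of the 20 members 9 reached 20 CPM in only 1 of the libraries.

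Inflammatory genes were mostly at or below their like. Of 21 chemokines and colony-stimulating factors 10 reached 20 CPM, with 1 higher and 3 lower (median -0.04), 2 above and 6 below genes of like GC content (-1.25), and 2 and 4 with length added (-0.65). Ccl2, which attracts monocytes, had 401 CPM in PM-LMSC and 345 CPM in A-LMSC, and Cxcl1, which attracts neutrophils, 44.8 CPM and 63.7 CPM in the same order. Their like-GC differences were -1.93 and -2.71, and with length added -0.48 and -1.94. Cxcl16 had 53.7 CPM in PM-LMSC and 146 CPM in A-LMSC, at -1.54, and Csf3, the neutrophil growth factor G-CSF, 13.0 CPM and 79.0 CPM, at -1.16.

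Among 12 of 22 interleukins and acute-phase genes 2 were higher and 5 lower (median -0.91), 1 and 4 beside genes of like GC content (-0.30), and 1 and 3 with length added (-0.30). Il11, an IL-6 family cytokine linked to fibroblast activation, had 285 CPM in PM-LMSC and 29.7 CPM in A-LMSC (9.60-fold, 8.57 to 10.8), at 3.86, and 59.8 CPM in M-LMSC. Nos2, the inducible nitric oxide synthase, had 34.1 CPM in PM-LMSC and 607 CPM in A-LMSC (17.8-fold lower, 16.2 to 19.7), at -3.44. Il6 had 29.8 CPM in PM-LMSC and 54.6 CPM in A-LMSC, at -2.49. NF-kB subunits and targets had 17 of 20 members, 5 higher and 10 lower (-1.18), 4 and 4 beside genes of like GC content (0.00), and 1 and 3 with length added (-0.01). Of the adhesion targets Vcam1 had 330 CPM in PM-LMSC and 41.6 CPM in A-LMSC, at 0.90, and Icam1 36.5 CPM and 165 CPM in the same order, at -0.88. Bcl3, a nuclear partner of NF-kB, had 14.2 CPM in PM-LMSC and 155 CPM in A-LMSC, at -1.77.

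Complement genes had 13 of 20 members, with 5 higher and 4 lower (median -0.28), 1 and 2 beside genes of like GC content (-0.46), and 2 and 4 with length added (-0.11). C3, the central component, was the 1 member above its like by the like-GC difference (1.98, and 1.48 with length added), with 328 CPM in PM-LMSC and 135 CPM in A-LMSC. Cfb, factor B, had 25.2 CPM in PM-LMSC and 235 CPM in A-LMSC (9.36-fold lower, 8.33 to 10.5), at -2.36.

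Interferon-stimulated genes lay below genes of like GC content more often than above. Of 30 genes 23 reached 20 CPM, with 7 higher and 10 lower (median -0.99), 2 above and 9 below genes of like GC content (-0.62), and 3 and 7 with length added (-0.78). Of all genes 31.9% were higher and 34.3% lower by ratio, and 21.8% above and 16.5% below by the like-GC difference. The guanylate-binding protein gene Gbp2 had 152 CPM in PM-LMSC and 12.6 CPM in A-LMSC (12.05-fold, 10.1 to 14.4), at 1.94. Usp18, which dampens the interferon receptor, had 103 CPM in PM-LMSC and 377 CPM in A-LMSC, at -1.42, and Isg15, a ubiquitin-like modifier, 232 CPM and 798 CPM in the same order, at -0.97. Rtp4 had 7.89 CPM in PM-LMSC and 33.4 CPM in A-LMSC, at -2.10, and Irf7, a regulator of the response, 92.5 CPM and 359 CPM, at -0.79. Ifit1 had 19.1 CPM in PM-LMSC and 38.7 CPM in A-LMSC, at -2.73, but 100.1 CPM in M-LMSC. Of the 23 members 10 reached 20 CPM in only 1 library.

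The interferon response element was held by 14 of 33 matched promoters of the interferon and antigen presentation lists (42.4%), against 165 of 5800 members (2.84%) and 943 of 27025 promoters (3.49%). The interferon list was written around genes known to respond to interferon, so this share says nothing about the stages. Genes with the element lay on both sides. The upstream 250 bases of Gbp2, which was higher, and of Isg15 and Ifit1, which were lower, are shown with each match in capitals. Gbp2 lies at chr3:142620413-142620662, plus strand. Isg15 lies at chr4:156200819-156201068, minus strand. Ifit1 lies at chr19:34640639-34640888, plus strand.
Gbp2: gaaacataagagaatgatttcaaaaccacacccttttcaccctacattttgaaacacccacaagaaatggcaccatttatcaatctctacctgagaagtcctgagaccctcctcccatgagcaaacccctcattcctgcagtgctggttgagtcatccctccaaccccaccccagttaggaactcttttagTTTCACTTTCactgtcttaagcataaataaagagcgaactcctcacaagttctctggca
Isg15: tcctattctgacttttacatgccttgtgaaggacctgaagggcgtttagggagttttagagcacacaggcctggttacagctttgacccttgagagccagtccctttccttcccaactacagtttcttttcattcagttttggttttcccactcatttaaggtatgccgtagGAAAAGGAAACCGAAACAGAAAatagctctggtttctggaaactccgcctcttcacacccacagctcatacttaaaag
Ifit1: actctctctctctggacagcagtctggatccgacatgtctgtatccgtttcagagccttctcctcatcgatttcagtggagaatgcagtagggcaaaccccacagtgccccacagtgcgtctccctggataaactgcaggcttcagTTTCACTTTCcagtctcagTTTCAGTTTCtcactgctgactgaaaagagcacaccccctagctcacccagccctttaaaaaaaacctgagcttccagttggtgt
The Gbp2 match, TTTCACTTTC, also occurs in the Ifit1 promoter, in genes whose ratios were 3.49 and -0.98.

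Antigen presentation genes had 15 of 20 members, with 1 higher and 10 lower (median -1.45), 1 above and 5 below genes of like GC content (-0.62), and 1 and 2 with length added (-0.43). Tap1, a chain of the peptide transporter, had 24.8 CPM in PM-LMSC and 146 CPM in A-LMSC, at -1.37. B2m, the light chain of MHC class I, had 199 CPM in PM-LMSC and 335 CPM in A-LMSC (1.68-fold lower, 1.60 to 1.77), at -1.44, and 811 CPM in M-LMSC. The heavy chain gene H2-D1 had 875 CPM in PM-LMSC and 2238 CPM in A-LMSC, at -0.03, and its reads may be shared with related class I genes. The member that was higher, Pdia3, had 979 CPM in PM-LMSC and 111 CPM in A-LMSC, and it encodes a disulfide isomerase of the endoplasmic reticulum with a general role in folding.

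Immediate early and AP-1 transcription factors lay on both sides, as did all genes, of which 31.9% were higher and 34.3% lower by ratio. Of 20 genes 19 were members, with 5 higher and 8 lower (median -0.69), 7 above and 5 below genes of like GC content (0.65), and 7 and 4 with length added (0.75). Of the 19 members 4 reached 20 CPM in only 1 library. Klf4 had 95.3 CPM in PM-LMSC and 31.3 CPM in A-LMSC, at 2.62, and Egr2 45.9 CPM and 4.71 CPM in the same order, at 3.51. Fosl1 and Fosl2, the Fos-related partners in AP-1, had 221 and 447 CPM in PM-LMSC, against 150 and 135 CPM in A-LMSC, at 2.07 and 1.05. Of the Jun genes, which supply the other side of the dimer, Jund and Junb were lower. Jund had 77.0 CPM in PM-LMSC and 543 CPM in A-LMSC, at -1.13, and Junb 217 CPM and 1037 CPM, at -0.66. The C/EBP genes had the lowest ratios of the list: Cebpb had 27.7 CPM in PM-LMSC and 532 CPM in A-LMSC (19.2-fold lower, 17.3 to 21.5), at -2.55, and Cebpd 97.1 CPM and 872 CPM in the same order (8.98-fold lower, 8.47 to 9.54), at -2.84. C/EBP proteins are known regulators of acute-phase genes such as Saa3.

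Stromal transcription factors had 15 of 30 members, 6 higher and 4 lower (median -0.45), 3 and 3 beside genes of like GC content (0.09), and 3 and 4 with length added (-0.04). Gata6 had 39.2 CPM in PM-LMSC and 18.04 CPM in A-LMSC, at 2.14, and Twist2 34.4 CPM and 161 CPM in the same order, at -1.41.

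Metabolic gene lists were lower by ratio but close to their like. Glycolysis had 17 of 18 members, 1 higher and 11 lower (median -1.26), 0 above and 3 below genes of like GC content (-0.19), and 1 and 2 with length added (-0.11). Nuclear genes of the respiratory chain had 32 of 33 members, 2 higher and 15 lower (-0.87), 1 and 8 (-0.32), and 2 and 3 with length added (-0.05). Cytosolic ribosomal proteins had 30 of 33 members, 3 higher and 10 lower (-0.75), 1 and 8 (-0.15), and 3 and 5 with length added (0.02), and their reads may be shared with processed pseudogenes. A few of their members stood apart all the same, such as Ndufb8 of complex I, with 85.4 CPM in PM-LMSC and 175 CPM in A-LMSC (-2.42).

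Cholesterol and fatty acid synthesis had 26 of 27 members, with 12 higher and 12 lower (median -0.50), 5 and 4 beside genes of like GC content (-0.08), and 3 and 4 with length added (-0.27). Acly, which makes cytosolic acetyl-CoA, had 393 CPM in PM-LMSC and 73.8 CPM in A-LMSC, at 2.50. Lss, which closes the sterol rings, had 57.5 CPM in PM-LMSC and 129 CPM in A-LMSC, at -3.73. Antioxidant genes had 22 of 23 members, 5 higher and 10 lower (-0.90), 4 and 7 (-0.34), and 6 and 6 with length added (-0.03). Gclc, the rate-limiting enzyme of glutathione synthesis, had 62.8 CPM in PM-LMSC and 2.27 CPM in A-LMSC, at 2.95. The superoxide dismutases stood on the other side: Sod3, the secreted form, had 46.2 CPM in PM-LMSC and 484 CPM in A-LMSC (10.5-fold lower, 9.61 to 11.4), at -2.82, and Sod2, of mitochondria, 188 CPM and 465 CPM, at -3.80.

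Retinoid and xenobiotic genes had 12 of 18 members, with 2 higher and 7 lower (median -1.77), 1 and 4 beside genes of like GC content (-0.66), and 2 and 4 with length added (-0.69). Dhrs3, which turns retinaldehyde back into retinol, had 46.5 CPM in PM-LMSC and 460.0 CPM in A-LMSC (9.90-fold lower, 9.09 to 10.8), at -2.48. Cyp26b1, which breaks down retinoic acid, had 5.62 CPM in PM-LMSC and 43.1 CPM in A-LMSC, at -1.58. Aldh1a1, which makes retinoic acid, was higher, with 26.6 CPM in PM-LMSC and 1.72 CPM in A-LMSC, at 1.78.

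Ribosome assembly factors had 26 of 28 members, with 16 higher and 2 lower (median 1.26), 12 above and 1 below genes of like GC content (0.85), and 12 and 2 with length added (0.93), and 13 of the 26 reached 20 CPM in only 1 library. With a minimum of 50 CPM the median ratio was -0.12, on the other side of 0, while the median like-GC difference was 0.79. Tsr1, which matures the small subunit, had 157 CPM in PM-LMSC and 2.36 CPM in A-LMSC (66.5-fold, 45.2 to 102), at 3.93, and Ddx21, a nucleolar helicase, 314 CPM and 13.96 CPM in the same order, at 2.03. Heatr1 had 704 counts in PM-LMSC, against 8 in A-LMSC (75.8-fold, 38.3 to 176). Npm1, nucleophosmin, was below its neighbours, with 136 CPM in PM-LMSC and 181 CPM in A-LMSC, at -1.63.

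Nuclear pore and import genes had 14 of 25 members, with 12 higher and 0 lower (median 3.28), 8 above and 0 below genes of like GC content (1.37), and 7 and 1 with length added (0.95). Kpnb1, importin beta, had 921 CPM in PM-LMSC and 47.8 CPM in A-LMSC (19.3-fold, 17.7 to 21.1), at 1.88, and Nup205, a scaffold of the pore, 104 CPM and 3.08 CPM, at 2.35. Their transcripts are poor in GC, and 9 of the 14 members reached 20 CPM in only 1 library. Chromatin regulators had 18 of 31 members, 12 higher and 0 lower (2.17), 14 and 2 (2.10), and 7 and 3 with length added (0.52), so that the choice of neighbours set most of the median for these long transcripts. Chd4, a remodelling ATPase, had 460 CPM in PM-LMSC and 83.7 CPM in A-LMSC, at 1.68, and Adnp, a zinc finger protein, 702 counts in PM-LMSC and 0 in A-LMSC (at least 202-fold higher with A-LMSC at the floor of 3 counts). Ubiquitin ligases and cullins had 14 of 25 members, 13 higher and 0 lower (2.55), 7 and 0 (1.03), and 4 and 0 with length added (0.40), led by Smurf2, a ligase of the TGF-beta pathway, with 176 CPM in PM-LMSC and 3.44 CPM in A-LMSC (51.2-fold, 37.2 to 72.6), at 2.90. Of these 14 members 8, and of the 18 chromatin regulators 10, reached 20 CPM in only 1 library.

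The remaining protein-handling lists were closer to their neighbours. Translation factors had 21 of 23 members, 10 higher and 5 lower (median 0.90), 4 and 5 beside genes of like GC content (0.14), and 6 and 5 with length added (0.23), with the subunits of a single complex apart: Eif3c had 494 CPM in PM-LMSC and 33.3 CPM in A-LMSC, at 3.57, and Eif3e 19.5 CPM and 73.0 CPM in the same order, at -3.72. Aminoacyl-tRNA synthetases had 19 of 20 members, 8 higher and 7 lower (-0.14), 4 and 3 (0.00), and 3 and 2 with length added (0.17). Secretory coats had 25 of 26, 14 higher and 3 lower (1.45), 7 and 2 (0.10), and 7 and 1 (0.37). Heat shock and endoplasmic reticulum chaperones had 23 of 25, 11 higher and 1 lower (0.40), 4 and 5 (0.17), and 5 and 1 (0.34), with Hspa5, the chaperone BiP, at 760 CPM in PM-LMSC and 74.2 CPM in A-LMSC (1.04). All 27 proteasome genes were members, 10 higher and 6 lower (0.14), 2 and 5 (-0.24), and 4 and 3 (0.31). All 16 genes of the V-type proton pump were members too, 6 higher and 3 lower (0.15), 4 and 3 (-0.06), and 4 and 3 (0.28), and clathrin, endosome and retromer genes had 25 of 28, 11 higher and 6 lower (0.76), 5 and 3 (0.17), and 2 and 3 (0.25).

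Of the cell cycle lists, DNA replication genes went both ways by ratio, in shares near those of all genes (31.9% higher and 34.3% lower). Mitosis genes were higher or within 2-fold. DNA replication had 19 of 26 members, with 6 higher and 6 lower (median -0.53), 3 and 3 beside genes of like GC content (0.02), and 3 and 2 with length added (0.11). Rrm1, of ribonucleotide reductase, had 328 CPM in PM-LMSC and 11.7 CPM in A-LMSC (28.1-fold, 23.6 to 33.7), at 2.21, whereas its partner Rrm2, with 142 CPM in PM-LMSC and 47.3 CPM in A-LMSC, stood at 0.11. Mitosis genes had 13 of 24 members, 7 higher and 0 lower (1.08), 5 and 1 (0.42), and 5 and 2 with length added (0.82). Of these 13 members 6 reached 20 CPM in only 1 library. Kif20a, a kinesin of cell division, had 83.6 CPM in PM-LMSC and 5.62 CPM in A-LMSC, at 2.31. Targets of p53 and growth arrest genes had 15 of 21 members, 2 higher and 7 lower (-0.90), 3 and 1 (-0.32), and 3 and 1 with length added (-0.03). Mdm2, which removes p53, had 121 CPM in PM-LMSC and 10.5 CPM in A-LMSC, at 1.45, and Cdkn1a, which encodes p21, 700.3 CPM and 1653 CPM in the same order, at -0.03.

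Of 16 genes often used as controls 13 were members, with 2 higher and 4 lower (median -0.41), 1 and 4 beside genes of like GC content (-0.79), and 3 and 4 with length added (-0.44). Of all genes 31.9% were higher and 34.3% lower by ratio. Beside genes of like GC content 21.8% of all genes were above and 16.5% below, and with length added 18.5% and 15.7%. Ywhaz, a 14-3-3 protein, had 138 CPM in PM-LMSC and 17.1 CPM in A-LMSC, a ratio of 2.94, and the ribosomal protein gene Rplp0 1793 CPM and 5037 CPM in the same order, a ratio of -1.49. Gapdh had 251 CPM in PM-LMSC and 621 CPM in A-LMSC.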

How the data were processed

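LMSC RNA was sequenced by the authors, 1 library a stage. Alignment was with TopHat2 2.0.9 to mm10, from the processing notes of the submitters, with counter, annotation and strand setting not given in the sources used here. Overlapping and antisense genes may therefore share reads. In the deposited table each gene has a whole-number count and an FPKM. The counts were used for all main values and the deposited FPKM as an alternative. Of 34748 lines, 6 from 3 genes with incomplete values were dropped and not analysed here. Symbols turned into dates (27) or repeated (65) were replaced by Ensembl identifiers.

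CPM were scaled by TMM factors over the 3 libraries (edgeR 4.0.16, R 4.3.3), 1.02 for PM-LMSC and 0.818 for A-LMSC, with a floor of 3 counts at 0.234 and 0.272 CPM. Ratios were log2(CPM + 1) of PM-LMSC minus A-LMSC for genes of at least 20 CPM in either library. Intervals of a fold (95%, exact Clopper-Pearson) and of a level (exact Poisson) carry no pseudocount. GC content and length came from each gene's longest transcript in GENCODE M21 (98.6% of genes), so 9 of the 7286 genes have no like-GC difference. Named genes were the 15 furthest above and the 15 furthest below genes of like GC content with a ratio of at least 2-fold in the same direction, the 12 most abundant in each library, the 10 closest to 0 of at least 500 CPM in both, and list members. Unnamed gene models, protocadherin and histone clusters and mitochondrial genes were passed over. A few further genes are not reported here. The members, the 42 lists and the 9 marker lists were chosen with earlier results of these data known. Promoters (RefSeq, GRCm38.p6, the same mouse genome build as mm10) matched 79.6% of members by symbol. The genes printed with a promoter were chosen after their values were seen. The procedure was tested on simulated data (Python 3.11.15, numpy 2.4.6, pandas 2.3.3, scipy 1.17.1, matplotlib 3.10.9).

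Alternatives were pseudocounts of 0.1 and 5, TMM over the 2 libraries, DESeq2 1.42.0 size factors, upper-quartile scaling, column totals, FPKM, other minimum levels, and other sets of neighbours.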

Additional observations from a re-analysis of the deposited data

How the results depend on the processing

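No paired analysis was possible because each stage had 1 library and no test was run, and for the same reason no library could be left out. Scaling moved the plain ratios together. The median log2 ratio of all members, -0.33, was -0.55 with DESeq2 median-of-ratios size factors, -0.61 with upper-quartile scaling, 0.039 with column totals and -0.018 with the deposited FPKM, shifts of up to 0.37 that turn the direction of a gene or list closer to 0 than that. Of the calls 48.2% were higher in PM-LMSC in the main setting, 61.2% with column totals and 61.9% with FPKM, where genes at least 2-fold lower in PM-LMSC numbered 1647 and 1464. With another minimum level the median was 0.064 at 5 CPM, -0.66 at 50 CPM, 0.11 with no minimum and -0.46 at 20 CPM as a mean. Genes at least 2-fold higher in PM-LMSC numbered 3729 at 5 CPM, 1254 at 50 CPM and 4456 with no minimum. The genes at least 2-fold above genes of like GC content numbered 1028 at 50 CPM and 3549 with no minimum, and genes at least 2-fold below genes of like GC content 713 and 2579, and both stayed within 1.5 times of the main counts under the other 13 settings each, among them all scalings. Of list medians of at least 1 in size, 1 reversed (median log2 ratio: ribosome assembly factors), to -0.12 at 50 CPM. No ratio or like-GC difference of at least 1 in size reversed among the genes named by rank rather than as list members. Over genes and settings, 397 of their like-GC differences moved beyond counting error and 484 did not. List members were not followed singly across settings. With length added, the like-GC difference of Itga9 went from 1.14 to -0.73, of Adam12 from 1.12 to -0.41 and of Crim1 from 1.03 to -0.23.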

Other observations

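A few genes that the naming rule passes over, chosen here after their values were seen, had large differences in counts. The overlapping mitochondrial genes mt-Atp6 and mt-Atp8 had 1 and 1786 counts in PM-LMSC, against 4886 and 9918 in A-LMSC, and mt-Nd4l had 542 counts in PM-LMSC and 1 in A-LMSC. Among protocadherin genes of the gamma cluster, which share exons, Pcdhga4 had 1236 counts in PM-LMSC and 33 in A-LMSC, while another gene model of the cluster went the other way, with 47 and 3036 counts in the same order. The histone gene Hist2h2aa1, which has a near-identical copy, had 0 counts in PM-LMSC and 701 in A-LMSC. How reads of such genes were assigned is not given in the sources used here, and its part in these values was not tested.

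In some protein complexes, chosen here after their values were seen, a pair of subunits lay far apart. Rrm1 and Rrm2 of ribonucleotide reductase had like-GC differences of 2.69 and -0.53, Eif3c and Eif3e of the same initiation factor 3.05 and -3.59, and Atp6v1a and Atp6v0e of the proton pump 2.59 and -3.58. Atp6v0e had 125 CPM in PM-LMSC and 351 CPM in A-LMSC. Of 27 proteasome genes 2 stood above and 5 below genes of like GC content, and the others lay within 2-fold.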
